A study of Mus musculus with 12 samples.

Results

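Small leucine-rich proteoglycans (SLRPs) are secreted matrix proteins built from leucine-rich repeats, most of which carry chondroitin, dermatan or keratan sulfate chains. In the cornea they bind collagen fibrils, limit fibril width and set the spacing between fibrils on which transparency depends. Most corneal SLRP transcripts come from stromal keratocytes, whereas the corneal endothelial cell (CEC) layer rests on Descemet membrane behind the stroma. The SLRPs examined here were picked by gene symbol as 10 genes of classes I, II and III. Of these, 9 had a row among the 15838 genes of the deposited tables, and Epyc (epiphycan, class III, ENSMUSG00000019936) had none.

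RNA was sequenced from CEC on Descemet membrane peeled from the corneas of C57BL/6 mice at 10 weeks of age, and the 12 libraries were 3 each from WT males, WT females, KO males and KO females. KO mice were Slc4a11-/-, with a targeted deletion of internal exons in every cell of the body, and WT mice were their Slc4a11+/+ littermates from intercrosses of heterozygotes. No agent was given. The study's methods describe the membranes of both eyes taken as pairs and the sample records describe pooled membranes, so that the p-values measure the spread between libraries, which may not be that between mice. The tables give for each gene a log2 fold change (log2FC) and a limma moderated t with its p. They also give the mean expression in log2 CPM (read counts scaled to library size) over all libraries. The comparisons are KO against WT, the genotype by sex interaction, and female against male. KO against WT was read as the effect in males, and the interaction as the difference between the sexes in that effect. The labels themselves name no sex for the KO effect. The tables give no value per library, which leaves sequencing depth unknown, and the level of each group was estimated from the mean and the coefficients without an error. A gene was called at a Benjamini-Hochberg adjusted p under 0.05 over all 15838 genes. The effect in females and the mean effect over both sexes are sums of the deposited coefficients, and each error given below is the standard error (SE) of a log2FC over 3 libraries a group.

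Slc4a11, the deleted gene, encodes a transporter to which the study gives a role in ammonia homeostasis. Slc4a11 had estimated levels of 3076 CPM (WT) and 865.0 CPM (KO) in males and of 4681 CPM (WT) and 633.5 CPM (KO) in females. It fell by 1.83 ± 0.22 (SE, log2) in males (adjusted p = 0.000522) and by 2.89 ± 0.22 in females (adjusted p = 2.77e-05), in the direction of the labels. The difference between the sexes in this fall was not called (adjusted p = 0.176). The 11 markers of corneal endothelium were all measured, led by Col8a2 at a mean of 7100 CPM and Aqp1 at 5279 CPM. The 15 stromal keratocyte markers other than SLRPs were also nearly all present, with 14 measured at a mean of at least 1 CPM, and only Thy1 had no row. The peeled membranes thus held transcripts of both marker lists. Which cells these transcripts came from was not tested. In such bulk samples fewer cells of a type and less RNA per cell cannot be told apart.

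The SLRP genes lie in tight groups on the genome, which makes the members of a group comparable by neighbourhood. On chromosome 10 (GRCm38), 203 kb hold Dcn (97479609 to 97518143), Lum (97565128 to 97572703), Kera (97606879 to 97613692) and Epyc (97644068 to 97682454), all on the plus strand with no other protein-coding gene between neighbours. On chromosome 13, 80.1 kb hold Aspn (49544443 to 49567565), Omd (49582462 to 49592822) and Ogn (49608046 to 49624501) on the plus strand, all 3 inside the span of Cenpp, which is read from the opposite strand. Chromosome 1 holds Prelp (133910304 to 133921414, minus strand) and Fmod (134037254 to 134048277, plus strand), 115839 bases apart. Bgn stands alone on X (73483602 to 73495933, plus strand).

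RefSeq start sites with upstream sequence were at hand for 8 of the 10 genes, all but Dcn and Lum. The 150 bases before the start site are shown for the 4 of these genes that were called for the mean KO effect, and for Ogn, the most abundant member that was not called. Each is written on the coding strand, from chr1:133921402-133921551 for Prelp, chr1:134037104-134037253 for Fmod, chr10:97607055-97607204 for Kera, chrX:73483451-73483600 for Bgn and chr13:49607865-49608014 for Ogn (GRCm38.p6). The gene spans above come from GENCODE, whose start sites differ from those of RefSeq. The Kera window thus lies inside the span given for Kera, and the Prelp window overlaps the start of transcription of the span given for Prelp. Capitals mark letters that match one of 5 short motifs on either strand: the TATA box (TATAAA), the CCAAT box (CCAAT), the GC box (GGGCGG), the AP-1 site (TGANTCA) and the E-box (CACGTG).
Prelp: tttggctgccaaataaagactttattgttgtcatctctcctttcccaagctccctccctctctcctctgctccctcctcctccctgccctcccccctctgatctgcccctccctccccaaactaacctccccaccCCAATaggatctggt
Fmod: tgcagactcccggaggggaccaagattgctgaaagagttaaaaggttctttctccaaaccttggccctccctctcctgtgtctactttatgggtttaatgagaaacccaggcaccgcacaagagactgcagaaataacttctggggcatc
Kera: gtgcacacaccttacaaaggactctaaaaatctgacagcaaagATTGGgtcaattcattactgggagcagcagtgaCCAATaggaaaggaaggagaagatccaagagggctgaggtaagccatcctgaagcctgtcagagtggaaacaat
Bgn: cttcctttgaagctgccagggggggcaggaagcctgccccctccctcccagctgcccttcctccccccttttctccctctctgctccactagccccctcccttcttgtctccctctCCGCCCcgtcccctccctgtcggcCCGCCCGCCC
Ogn: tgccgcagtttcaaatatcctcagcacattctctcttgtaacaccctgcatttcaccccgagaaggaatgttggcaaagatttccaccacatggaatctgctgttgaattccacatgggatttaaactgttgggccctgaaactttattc
Counted back from the start site, Prelp held 1 CCAAT box that begins at -15, and Kera held 2, which begin at -107 and -74 and run in opposite directions. Bgn held 3 GC boxes, the last 2 of which overlap. Fmod and Ogn held none of the 5 motifs, as did Aspn, Omd and both start sites of Epyc. Among 32851 promoter windows of the same length, 24.5% held a CCAAT box, 28.6% a GC box, 7.57% a TATA box, 4.24% an AP-1 site and 4.30% an E-box. None of the 5 motifs was in all of the 4 called members' windows shown, the CCAAT box being in those of Kera and Prelp. These windows differed in base content, from 46% G and C in Kera to 70% in Bgn, against a median of 54% over all windows.

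The level of the members spanned more than 3 orders of magnitude. Per kilobase of exon, the only scale on which genes can be ranked, Dcn, which encodes decorin, the main dermatan sulfate proteoglycan of the corneal stroma, stood first with 650 CPM per kb (95% CI 610 to 693). It ranked 20th of all genes by CPM and 29th per kilobase. Kera (keratocan, 150 CPM per kb, 125 to 180), Lum (lumican, 147, 127 to 171), Bgn (biglycan, 144, 134 to 154) and Ogn (osteoglycin or mimecan, 134, 125 to 144) came next, and their intervals overlapped, so that the order among these 4 genes is not settled. Fmod (fibromodulin) followed at 74.1 CPM per kb (66.3 to 82.9). Prelp (proline and arginine rich end leucine rich repeat protein) came after it with an interval of 10.0 to 14.4 CPM per kb. Omd (osteomodulin) at 2.07 CPM per kb (1.75 to 2.46) and Aspn (asporin) at 0.391 (0.228 to 0.672) closed the order. Summed without the length correction, the 9 genes made up 0.723% of the library in male WT and 0.694% in female WT, of which Dcn alone was 61.0% and 60.9%.

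**Figure D1:**
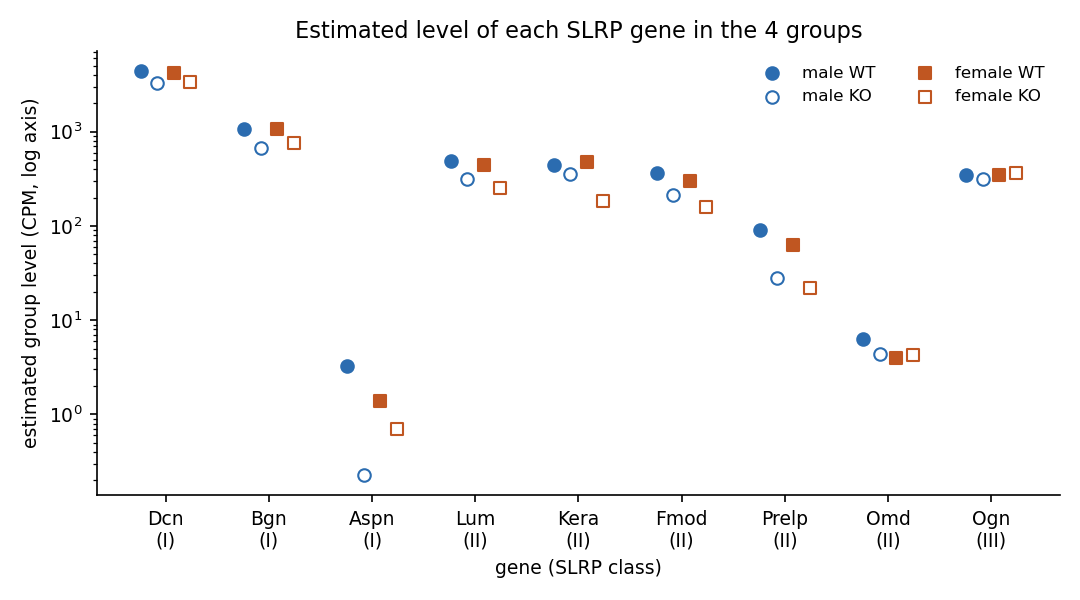
Estimated level of the 9 measured SLRP genes in the 4 groups, in CPM on a log axis, with 1 point per group and no error because the tables hold no value per library. Open symbols (KO) lie below filled symbols (WT) of the same sex for every gene in males, and for all but Ogn and Omd in females.

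The first comparison asks which SLRP genes changed with the loss of Slc4a11 in male mice. All 9 members had a negative log2FC in males, with a median of -0.64, whereas 52.8% of all genes were negative with a median of -0.02. Of the 9 members, 3 were called, all lower in KO, against 5.47% of all genes called in either direction. The called genes were Prelp, Bgn and Fmod. The 9 genes summed to 7228 CPM in WT males against 5186 CPM, or 71.7% of WT, in KO males. Under the Benjamini-Yekutieli or Holm adjustment none of the 9 was called in males.

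Prelp, which encodes a basic heparin-binding protein that anchors basement membranes to collagen, was estimated at 91.2 CPM in WT males against 28.0 CPM in KO males. It fell by 1.70 ± 0.33 (SE, log2), to 0.308 of WT (adjusted p = 0.0102), which made it the called member with the greatest change. An antisense gene, Gm15851, overlaps Prelp, and the strand setting of the counter is not given in the sources used here, so reads of the pair may not be separated. Bgn, a class I proteoglycan with chondroitin or dermatan sulfate chains, went from 1078 to 675 CPM. Its log2FC of -0.67 ± 0.13 had an adjusted p of 0.00991, the lowest of the members in males. Fmod, a keratan sulfate proteoglycan that binds the same collagen site as lumican, went from 364 to 211 CPM with a log2FC of -0.79 ± 0.21 (adjusted p = 0.0471).

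The other 6 members were not called in males. Dcn went from 4407 CPM in WT to 3280 CPM in KO and had a log2FC of -0.43 ± 0.12 (adjusted p = 0.0584). Among genes of a mean of at least 10 CPM alone, adjusted again, Dcn joined the called members in males, against 9.24% of those genes called. Lum, the main keratan sulfate proteoglycan of the stroma together with keratocan, stood at 488 and 313 CPM, and its log2FC of -0.64 ± 0.28 had an adjusted p of 0.198. Kera stood at 441 and 357 CPM with a log2FC of -0.31 ± 0.34 (adjusted p = 0.617). Ogn, the class III member with keratan sulfate chains in the cornea, stood at 350 and 319 CPM with a log2FC of -0.13 ± 0.14 (adjusted p = 0.579). Of the scarce members, Omd had a log2FC of -0.55 ± 0.30 (adjusted p = 0.311), and Aspn, at 3.23 CPM in WT against 0.227 CPM in KO, had a log2FC of -3.83 ± 1.16 (adjusted p = 0.0723).

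In females 7 of the 9 members had a negative log2FC, with a median of -0.81 against 0.01 over all genes, of which 49.2% were negative. Only Prelp was called, against 1.42% of all genes called in either direction. Prelp, at 63.1 CPM in WT against 22.0 CPM in KO, fell by 1.52 ± 0.35 (adjusted p = 0.0477). Kera had nearly as large a difference, from 479 to 183 CPM, with a log2FC of -1.39 ± 0.34 and an adjusted p of 0.0631. Fmod went from 297 to 159 CPM (log2FC -0.91 ± 0.21, adjusted p = 0.0544), and Bgn from 1080 to 753 CPM (log2FC -0.52 ± 0.13, adjusted p = 0.0647). The call of Prelp in females was lost under the Benjamini-Yekutieli adjustment (adjusted p = 0.488), under Holm, and with the genotype coefficient read as the mean of both sexes (adjusted p = 0.219). Among genes of a mean of at least 10 CPM alone, adjusted again, Kera, Fmod and Bgn joined it, which made 4 members, against 3.40% of those genes called.

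Lum in females was estimated at 441 CPM in WT and 251 CPM in KO, with a log2FC of -0.81 ± 0.28 (adjusted p = 0.170). Dcn was at 4226 and 3401 CPM, with a log2FC of -0.31 ± 0.12 (adjusted p = 0.222). Aspn had a log2FC of -0.99 ± 0.87 (adjusted p = 0.611). The 2 members with a positive log2FC lie side by side on chromosome 13, namely Ogn at 0.08 ± 0.14 (adjusted p = 0.817) and Omd at 0.10 ± 0.34 (adjusted p = 0.909). The 9 genes summed to 6935 CPM in WT females against 5135 CPM, or 74.0% of WT, in KO females.

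**Figure D2:**
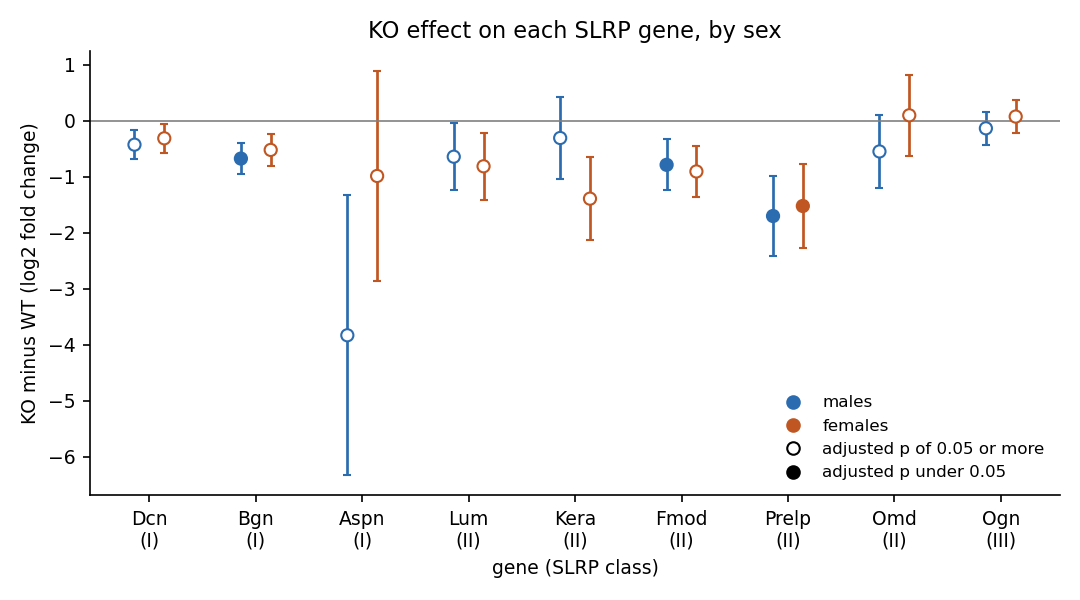
KO minus WT log2 fold change of each measured SLRP gene in males and in females, with 95% confidence intervals, 3 libraries a group, and filled points for an adjusted p under 0.05. Prelp is filled in both sexes, Bgn and Fmod in males, and the interval of Aspn in males runs from -6.33 to -1.33.

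The second question of the study was whether the effect of the deletion differs between the sexes. No member was called for this difference by the limma moderated t, against 0.543% of all genes, and at an unadjusted p under 0.05 there was 1, Kera. The log2FC of Kera was lower in females than in males by 1.08 ± 0.48 (adjusted p = 0.463). For Aspn the effect was more negative in males, with a difference of 2.85 ± 1.45 (adjusted p = 0.553). For Prelp the difference was 0.18 ± 0.48, with a 95% interval from -0.85 to 1.21, and for Dcn it was 0.11 ± 0.17 (-0.26 to 0.48). That Prelp was called in both sexes and Bgn and Fmod in males alone is therefore not shown to be a sex difference. Female against male, no member was called either, against 0.0316% of all genes, and none had an unadjusted p under 0.05. The sex log2FC of the members ran from -0.44 ± 0.48 in Prelp to 0.21 ± 0.90 in Aspn.

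Averaged over both sexes, with all 12 libraries behind each value, 6 of the 9 members were called, all lower in KO, against 9.07% of all genes called in either direction. All 9 mean effects were negative, with a median of -0.73 against -0.01 over all genes. The members are mostly abundant genes, which are measured more precisely. Of the 8801 genes with a mean of at least 10 CPM, 7 of them members, 11.5% were called for the mean effect and 36.9% had a negative log2FC. Prelp had a mean effect of -1.61 ± 0.24 (adjusted p = 0.00153), Bgn of -0.60 ± 0.09 (adjusted p = 0.00189) and Fmod of -0.85 ± 0.15 (adjusted p = 0.00489). Dcn fell by 0.37 ± 0.09 (adjusted p = 0.0200), to 0.774 of WT. Lum had a mean effect of -0.73 ± 0.20 (adjusted p = 0.0376) and Kera of -0.85 ± 0.24 (adjusted p = 0.0441).

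The 3 members not called for the mean effect were the 3 of the chromosome 13 cluster. Ogn had a mean effect of -0.03 ± 0.10 (adjusted p = 0.862), with a 95% interval from -0.24 to 0.18 that leaves out the estimates of the 6 called members, although no difference between genes was tested. Omd had -0.22 ± 0.23 (adjusted p = 0.534), at a mean of 4.66 CPM. Aspn had the most negative estimate, -2.41 ± 0.73 (adjusted p = 0.0544), at a mean of 0.920 CPM. Of the chromosome 10 cluster 3 of 3 measured genes were called, as were both genes on chromosome 1, against 9.07% of all genes. Ecm2, which flanks Aspn and is not a member, was called lower as well (-1.72 ± 0.29, adjusted p = 0.00325). No difference between the clusters was tested. Cenpp, within whose span the chromosome 13 genes lie, had a mean of 1.27 CPM and a mean effect of -0.19 ± 0.35 (adjusted p = 0.740). By class, 2 of 3 class I members, 4 of 5 class II members and 0 of 1 measured class III member were called, against the same 9.07%. The class medians were -0.60, -0.85 and -0.03. With an absolute log2FC above 1 also required, Prelp alone was left, against 2.25% of all genes. Of the 6 calls, 2 (Bgn, Prelp) were left under the Benjamini-Yekutieli adjustment, 0 under Holm, and 3 (Fmod, Bgn, Prelp) where the genotype coefficient was read as the mean of both sexes.

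**Figure D3:**
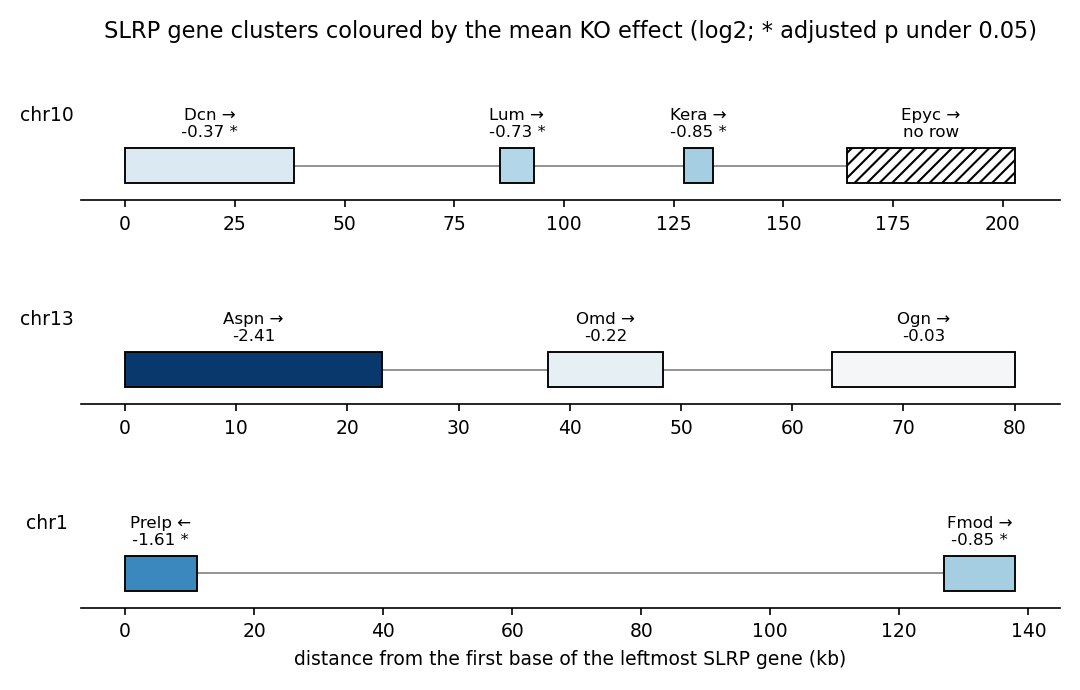
Position of the SLRP genes of chromosomes 10, 13 and 1, in kb from the first base of the leftmost gene, drawn to scale within each row with arrows for the strand and filled by the mean KO effect (log2). The 3 measured genes of chromosome 10 and both of chromosome 1 are starred for an adjusted p under 0.05, and the 3 of chromosome 13 are not.

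Other genes of the SLRP family were measured at low levels. Of 7 such genes, 6 had a negative mean effect, with a median of -0.97, and 2 were called, against 9.07% of all genes. Ecm2, which flanks Aspn and encodes a matrix protein with related repeats, fell by 1.72 ± 0.29 in the mean of both sexes (adjusted p = 0.00325), at a mean of 5.61 CPM. Podn (podocan) had a mean effect of -2.39 (adjusted p = 0.0339) at 1.32 CPM. Optc, the class III opticin, had -0.97 ± 0.55 (adjusted p = 0.263).

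The enzymes that build the SLRP chains had medians near 0. Of 11 measured genes of keratan sulfate synthesis, 1 was called for the mean effect, against 9.07% of all genes, and the median was 0.03. Chst5, the corneal sulfotransferase that sulfates keratan chains, had a mean of 930 CPM and a mean effect of 0.03 (adjusted p = 0.853). St3gal1, a sialyltransferase, was the called gene, with a mean effect of -0.98 ± 0.14 (adjusted p = 0.00111). Of 19 genes of the linker and of chondroitin or dermatan sulfate synthesis, 5 were called, 4 lower and 1 higher, against the same 9.07% of all genes. Their median was 0.03. Chsy3, a chondroitin synthase, fell by 1.02 ± 0.16 in males (adjusted p = 0.00369) and had a log2FC of -0.09 ± 0.16 in females (adjusted p = 0.824), a difference between the sexes that was not called (adjusted p = 0.102). The sulfotransferases Chst15 (mean effect -2.37 ± 0.45, adjusted p = 0.00793) and Chst11 (-1.26 ± 0.25, adjusted p = 0.0103) were lower, and Chpf2, a chondroitin polymerizing factor, was higher by 0.28 ± 0.07 (adjusted p = 0.0273).

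The collagens that SLRPs coat had negative effects as well. Of 9 fibrillar and fibril-associated collagens, all 9 had a negative mean effect, with a median of -0.65, and 4 were called, against 9.07% of all genes. Col12a1, a fibril-associated collagen with a mean of 11940 CPM, had a mean effect of -0.32 ± 0.07 (adjusted p = 0.0160). It fell by 0.45 ± 0.10 in females (adjusted p = 0.0358) and had a log2FC of -0.18 ± 0.10 in males (adjusted p = 0.307). That difference between the sexes was not called (adjusted p = 0.549). Col1a1 and Col1a2, the chains of type I collagen, had mean effects of -1.08 ± 0.28 (adjusted p = 0.0330) and -0.65 ± 0.15 (adjusted p = 0.0188), and Col11a1, a chain of type XI collagen, had -0.70 ± 0.16 (adjusted p = 0.0202).

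Among 14 ligands, receptors and partners bound by SLRP core proteins, 7 were called lower and none higher for the mean effect, against 9.07% of all genes called in either direction. Their median was -0.29. Tnxb, which encodes the collagen-binding tenascin-X, fell by 2.33 ± 0.21 in males (adjusted p = 5.29e-05) and by 1.21 ± 0.18 in females (adjusted p = 0.00455). Kdr, the VEGF receptor that decorin binds, fell by 0.95 ± 0.17 in females (adjusted p = 0.0114), with a log2FC of -0.01 ± 0.16 in males and a difference between the sexes that was not called (adjusted p = 0.0991). Igf1r and Fbn1 (fibrillin-1) had smaller mean effects, of -0.29 ± 0.06 (adjusted p = 0.0103) and -0.31 ± 0.07 (adjusted p = 0.0170). Of 10 processing proteases and collagen crosslinking genes, 1 was called lower and 1 higher for the mean effect, against the same 9.07%, with a median of -0.02. Pcolce2, a procollagen processing enhancer, had a mean effect of -1.37 (adjusted p = 0.0101), and Loxl2, a lysyl oxidase, of 0.56 (adjusted p = 0.0102).

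Many markers of stromal keratocytes were lower together with the SLRPs. Of the 14 measured markers other than SLRPs, 12 had a negative mean effect and 7 were called, all lower, against 9.07% of all genes. Their median was -0.73, as was that of the SLRP members, but the medians of the lists differed within each sex. That of the keratocyte markers was -0.41 in males and -0.98 in females, against -0.64 and -0.81 for the SLRP members. The keratocyte list shares Col1a1, Col1a2 and Col5a1 with the collagens and Chst5 with keratan sulfate synthesis. Aldh1a1 and Aldh3a1, the corneal crystallins of keratocytes and epithelium, had mean effects of -0.83 ± 0.09 (adjusted p = 0.000117) and -0.73 ± 0.11 (adjusted p = 0.00172). Fbln1 (fibulin-1) had -1.87 (adjusted p = 0.00206), whereas Cd34 was higher in KO females by 0.72 (adjusted p = 0.0354). In males Cd34 had a log2FC of -0.06 (adjusted p = 0.858), and the difference between the sexes was not called (adjusted p = 0.161). The 14 markers summed to 20550 CPM (WT) and 15320 CPM (KO) in males and to 20590 CPM (WT) and 11520 CPM (KO) in females, so that KO stood at 74.5% of WT in males and 55.9% in females. The part of stromal cells in the SLRP result was not tested, since the tables hold no value per library.

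The markers of the other cell types that a peeled membrane could carry are given for the same reason. Counts of calls here are for the mean effect, for which 9.07% of all genes were called. The 11 corneal endothelium markers summed to 23290 CPM (WT) and 23380 CPM (KO) in males and to 25150 CPM (WT) and 22810 CPM (KO) in females, and Slc4a11 itself was the 1 of them that was called. Without it the other 10 summed to 20220 CPM (WT) and 22510 CPM (KO) in males and to 20470 CPM (WT) and 22180 CPM (KO) in females, or 111% and 108% of WT. Of 8 epithelial markers, 7 had a negative mean effect, with a median of -1.10, and 1 was called lower (Dsp, mean effect -0.69, adjusted p = 0.0420). The 8 summed to 449.8 CPM (WT) and 275.9 CPM (KO) in males and to 295.8 CPM (WT) and 160.6 CPM (KO) in females. Of 6 measured iris pigment cell and melanocyte markers, 3 were called lower (Oca2, Tyr and Dct), with sums of 35.9 CPM (WT) and 14.2 CPM (KO) in males and of 46.5 CPM (WT) and 6.34 CPM (KO) in females. Of 5 measured markers of trabecular meshwork and limbal stroma, 2 were called lower, namely Mgp (mean effect -1.26, adjusted p = 0.000798) and Myoc (-4.67, adjusted p = 0.0170). Mgp fell by 2.03 in males (adjusted p = 0.000556) and had a log2FC of -0.49 in females (adjusted p = 0.340). That difference between the sexes was not called (adjusted p = 0.0727). The sum of the 5 markers was 52.2% of WT in KO males and 149% in KO females. That female sum does not describe each marker, as 3 of the 5 had a negative log2FC in females. Their female log2FC ran from -3.23 to 3.05 with a median of -0.49, and none was called in females, against 1.42% of all genes. Of 7 leukocyte markers 1 was called lower (Cd74, mean effect -0.79, adjusted p = 0.0274). The 7 summed to 63.0 CPM (WT) and 35.9 CPM (KO) in males and to 43.1 CPM (WT) and 75.2 CPM (KO) in females. All 7 had a negative log2FC in males (median -0.78), against 1 of 7 in females (median 0.89). None was called for the difference between the sexes, against 0.543% of all genes. None of 6 lens and 3 muscle markers was called by limma for the mean effect, and at an unadjusted p under 0.05 there were 0 of either. All 6 lens markers (median -1.43) and all 3 muscle markers (median -0.22) had negative mean effects. The lens sum stood at 90.7% of WT in KO males and at 93.1% in KO females. Bfsp1 of the lens had a mean effect of -0.79 (adjusted p = 0.389) and Myh11 of muscle -0.22 (adjusted p = 0.220). The part of these cells in the SLRP result was not tested.

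**Figure D4:**
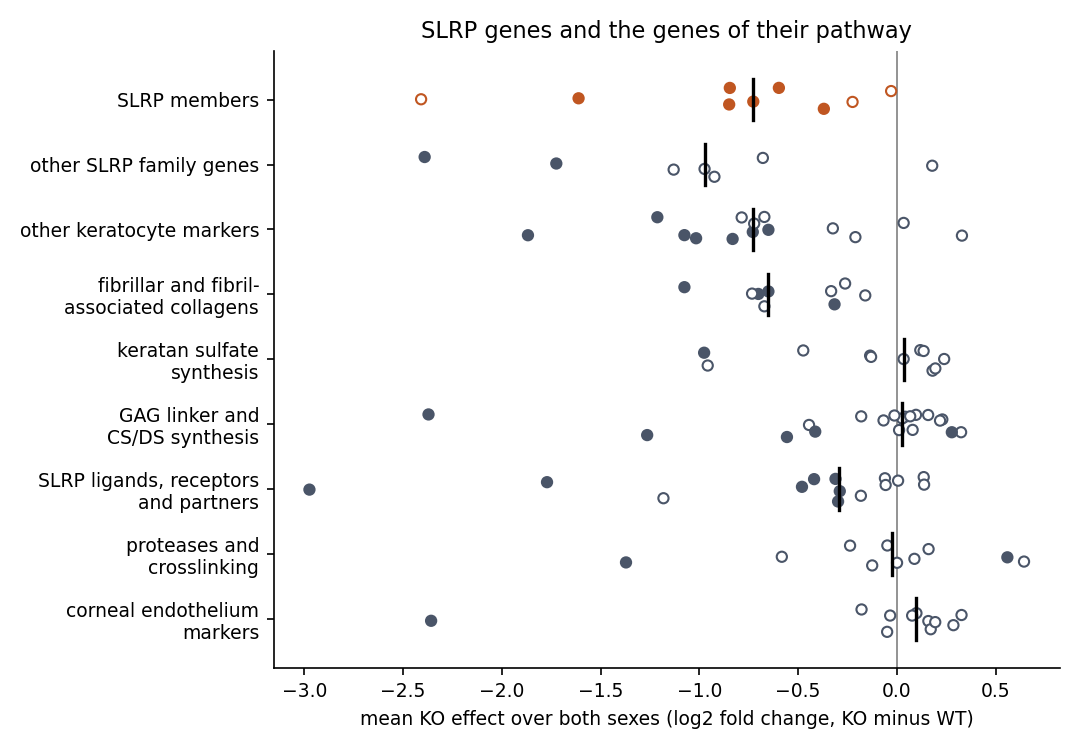
Mean KO effect over both sexes (log2, KO minus WT) of each gene in the SLRP list and 8 related lists, with 1 point per gene, filled for an adjusted p under 0.05, a black bar for the median of the list and no meaning in the vertical scatter within a list. The medians of the SLRP members (-0.73), other SLRP family genes (-0.97), other keratocyte markers (-0.73), collagens (-0.65) and SLRP ligands, receptors and partners (-0.29) lie left of 0. Those of proteases and crosslinking (-0.02), of chain synthesis (0.03) and of the endothelial markers (0.10) lie near it or right of it.

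The genes whose pattern was most like that of a member were sought over the effect in males, the effect in females and the sex difference, among 14399 genes of a mean of at least 1 CPM. Nearest to Dcn, the member with the highest level, were Rpgrip1l, Donson and Tmem8b, at Euclidean distances of 0.018, 0.045 and 0.046 on the log2 scale, and 938 genes lay within 0.3, so that the pattern of Dcn was a common one. Nearest to Prelp, the member with the smallest p, were Trim47, Wscd1 and Slc1a1, at distances of 0.162, 0.169 and 0.191, and 11 genes lay within 0.3. With 3 values per gene such a likeness is a description only.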

How the data were processed

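The authors sequenced stranded low-input total RNA as paired-end reads, aligned it to GRCm38 with HISAT2, and ran limma on voom-weighted values in a design of genotype by sex. They deposited 3 tables of such fits and no values per library (0 such columns), so depth is unknown here. In these deposited tables the fold change and the mean level are log2 values, the t column is a score, and every p-value stands beside its Benjamini-Hochberg adjusted p-value. The tables hold nothing but these comparison columns, which were therefore used. The counter, annotation release, strand setting and versions are not given in the sources used here.

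The SE is the log2FC divided by t. The median ratio of interaction to genotype SE, 1.42, was read as treatment coding, so that genotype is KO minus WT in the reference sex. The ratio does not tell which sex that is. Male was taken, as the sex comparison is female minus male, although that comparison is another fit. With female as the reference, the effects of males and females would trade places and the mean effect would stay. That reading was not run. The female effect is genotype plus interaction, with a squared SE that is the difference of theirs. The mean effect is genotype plus 0.5 of the interaction, with 0.5 of the interaction's SE. A formula set down earlier for that SE holds only where both sexes have equal errors and gave no value for 18 genes, so it was kept as an alternative. Tests used 13.8 degrees of freedom, as implied by t and p (14.6 in the sex table, another fit). The SE of a mean level is that of the interaction divided by 4, which holds if the deposited mean equals the mean of the fitted groups. Group levels join both fits. On simulated data with unequal weights, derived values equalled direct limma fits. If the authors took their coefficients from limma's contrast step, whose SEs are approximate under weights, the derived SEs and p-values are approximate too. Lengths and positions came from GENCODE M21 (GRCm38), with exons merged per gene. The tools were Python 3.11.15, pandas 2.3.3, scipy 1.17.1, R 4.3.3 and limma 3.58.1.

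Members and lists were chosen with earlier results of these data known. The text names all members, up to 4 called genes of each list with the smallest p (or the gene with the smallest p where none was called), the 3 genes nearest to Dcn and to Prelp, and Slc4a11. Chst5, Optc, Col8a2, Aqp1, Thy1 and Cenpp were named after their values were seen. A result under this rule is not reported here.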

Additional observations from a re-analysis of the deposited data

How the results depend on the processing

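Every call rests on one fit, and no library could be left out. No paired analysis was possible because the tables hold no values per library, and leaving out each replicate was not run for the same reason. Of the members called, those in males numbered 3 and went to 0 under Benjamini-Yekutieli or Holm adjustment to 1 with an absolute log2FC above 1 and to 2 (without Fmod, adjusted p = 0.104) with 1 adjustment over the 3 tables. In the other coding, where the genotype coefficient is the mean of both sexes, Aspn took the place of Fmod in males. In females, the 1 called member (Prelp) became 0 under both adjustments and 0 under the other coding, 4 with only genes of at least 10 CPM or with 1 adjustment over both derived contrasts, and 2 with the degrees of freedom of the sex table. For the mean effect, 6 became 2 (Bgn, Prelp) under Benjamini-Yekutieli, 0 under Holm, 1 with an absolute log2FC above 1, 4 with 1 adjustment over both derived contrasts (without Lum, adjusted p = 0.0526, and Kera, 0.0616) and 3 (Fmod, Bgn, Prelp) under the other coding. The formula for its SE set down earlier gave the same 6 (an alternative added after seeing the data). For the difference between the sexes and for female against male, the count was 0 under each adjustment, filter and fold limit run. Signs turned only under the other coding, for Kera in males (0.23) and for Ogn (-0.029) and Omd (-0.22) in females, none of them called. The cause of these shifts was not tested beyond the settings' own construction.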
